A study of Mus musculus with 84 samples.

Results

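The voltage-, calcium- and sodium-gated potassium channels, with the cytoplasmic subunits that bind them, were examined in single mouse vagal sensory neurons that project to the airways. The 46 genes comprise 8 Kv1, 1 Kv2, 3 Kv3 and 3 Kv4 alpha subunits, 9 silent subunits, 8 subunits of the Kv10 to Kv12 families, 4 Kv4 interacting proteins, 3 Kv beta subunits, 5 calcium-activated and 2 sodium-activated channels. They were taken by name, not by level, from a count table of 50686 genes. The 84 neurons came from vagal sensory ganglia of C57BL/6 mice and form 1 group, with no treatment named. Each had taken up the lipophilic dye DiI (2%) at its airway terminals and was collected alone, and its amplified mRNA was read in 76-base reads. No label gives the animal, its age or its sex, so the neurons are cells of 1 sample: shares and medians below describe these cells, and no test between classes was made.

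Potassium channels of these families open when a cell depolarises or when internal calcium or sodium rises, and the outward current repolarises the membrane, sets the gap between action potentials and limits repetitive firing. Kv1 and Kv4 channels carry low-threshold and A-type currents, Kv3 channels allow narrow spikes, and Kv2 channels give the slow delayed rectifier. Alpha subunits form the pore, silent subunits pass no current alone but alter Kv2 channels, and beta subunits and Kv4 interacting proteins change trafficking and inactivation. In airway afferents such currents bear on how readily stretch, irritants and inflammatory mediators evoke discharge and cough.

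Depth set which neurons could be used. Total counts ran from 576966 to 20668832, and 12 neurons under 5000000 were set aside. The shallowest of the 72 neurons kept had 6732279 counts, against 3892206 in the deepest one set aside. Levels are in CPM, counts scaled to the neuron's total, and detection means at least 10 CPM, equal to 67.3 counts at the lowest depth kept. All 10 pan-neuronal marker genes were detected in at least 50% of the kept neurons. Their summed level ran from 372 to 28641 CPM. In some kept neurons it lay below the satellite glial sum, such as AM244 (372 against 35386 CPM) and AM287 (3066 against 56618 CPM). Of the 46 genes 2 and 0 were detected in these neurons, which stay in the shares over 72. Satellite glial transcripts were also present, with a summed median of 1355 CPM over 7 genes and a range of 9.01 to 56618 CPM. Of these, Kcnj10, Sox10 and Cdh19 had medians below 1 CPM, as did all 5 endothelial, 6 leukocyte and 4 smooth muscle markers. Schwann cell transcripts had a summed median of 711 CPM over 6 genes and a range of 1.96 to 12524 CPM. Of these 6, 3 were detected in at least 50% of the kept neurons, and Prx, Mag and Ncmap had medians below 1 CPM. Fibroblast transcripts had a summed median of 45.8 CPM over 5 genes and a highest sum of 876 CPM. The number of genes detected per neuron ran from 841 to 8870, so 38 neurons with 5000 or more genes, called gene-rich, were used for comparisons between classes. The lowest of these had 5231 genes and the highest of the other 34 had 4870.

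The promoters of 4 channel genes that recur in the class comparisons are shown here for sequence context: Kcnd3, Kcns3, Kcnh1 and Kcnt2. Each is the 250 bases before a RefSeq start site on GRCm38.p6, read along the gene. Capitals mark a GC box, GGGCGG on either strand, a sequence bound by Sp-family factors.
Kcnd3 (chr3:105451640-105451889, plus strand): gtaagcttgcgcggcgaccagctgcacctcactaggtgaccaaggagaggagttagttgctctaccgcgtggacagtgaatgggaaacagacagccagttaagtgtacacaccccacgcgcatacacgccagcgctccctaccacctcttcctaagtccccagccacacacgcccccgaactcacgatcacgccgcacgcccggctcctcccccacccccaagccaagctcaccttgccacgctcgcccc
Kcns3 (chr12:11150374-11150623, minus strand, the inner of 2 listed starts): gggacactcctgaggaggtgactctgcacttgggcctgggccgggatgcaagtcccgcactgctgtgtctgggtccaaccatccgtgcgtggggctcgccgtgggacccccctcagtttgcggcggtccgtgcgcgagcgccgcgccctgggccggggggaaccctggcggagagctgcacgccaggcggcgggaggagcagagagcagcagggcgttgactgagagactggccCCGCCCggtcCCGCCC
Kcnh1 (chr1:192190527-192190776, plus strand): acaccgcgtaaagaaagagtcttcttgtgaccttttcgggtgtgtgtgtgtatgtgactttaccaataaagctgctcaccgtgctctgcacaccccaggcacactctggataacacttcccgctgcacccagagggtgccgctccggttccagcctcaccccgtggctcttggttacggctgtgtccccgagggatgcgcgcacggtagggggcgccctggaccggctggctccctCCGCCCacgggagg
Kcnt2 (chr1:140245468-140245717, plus strand): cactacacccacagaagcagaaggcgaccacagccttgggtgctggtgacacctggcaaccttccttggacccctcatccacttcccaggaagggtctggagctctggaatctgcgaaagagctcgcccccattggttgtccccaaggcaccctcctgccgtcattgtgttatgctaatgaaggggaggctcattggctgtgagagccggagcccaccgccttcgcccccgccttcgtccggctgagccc
The Kcns3 window held 2 GC boxes, that of Kcnh1 held 1, and those of Kcnd3 and Kcnt2 held 0. Their GC contents were 72.8%, 62%, 62.8% and 61.6%, where the median over all windows was 52.4%. The outer Kcns3 start, not printed, had 1 GC box and a GC content of 47.2%. Kcnip1 has 3 windows, none printed, with GC contents of 44%, 67.6% and 52.8%. RefSeq windows were found for 35 of the 46 genes, 49 windows in all. A GC box was present in 51.02% of these 49 windows and in 32.7% of all 32851 windows. By gene, it was present in 4 of 7 members detected in at least 50% of neurons and in 5 of 8 members never detected. The TATA box letters TATAAA were in 0 of the 49 windows and in 12.4% of all windows, and the cyclic AMP response element TGACGTCA was in 0 of the 49 and in 1.55% of all. These matches describe the letters of the windows and were not set against binding data.

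Of the 46 genes, 36 were detected in 1 neuron or more and 9 in at least 50% of the 72 neurons. Among all genes detected in any neuron the share was 5458 of 16068, or 33.97%, against 25% of the 36 members. The 9 were Kcnb2, Kcnab1, Kcna6, Kcnab2, Kcnip4, Kcnd1, Kcnc4, Kcna2 and Kcnh7. A neuron held a median of 12 members, with a range of 0 to 23. In gene-rich neurons the median was 18 and the range 6 to 23, and in the other 34 neurons the median was 5 and the range 0 to 14. The number of members detected therefore moved with the number of genes detected, and shares over all 72 neurons carry that spread. Thinning every neuron to the depth of the shallowest left 9 members at 50% or more, and counting a single read as detection raised this to 22.

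**Figure D1:**
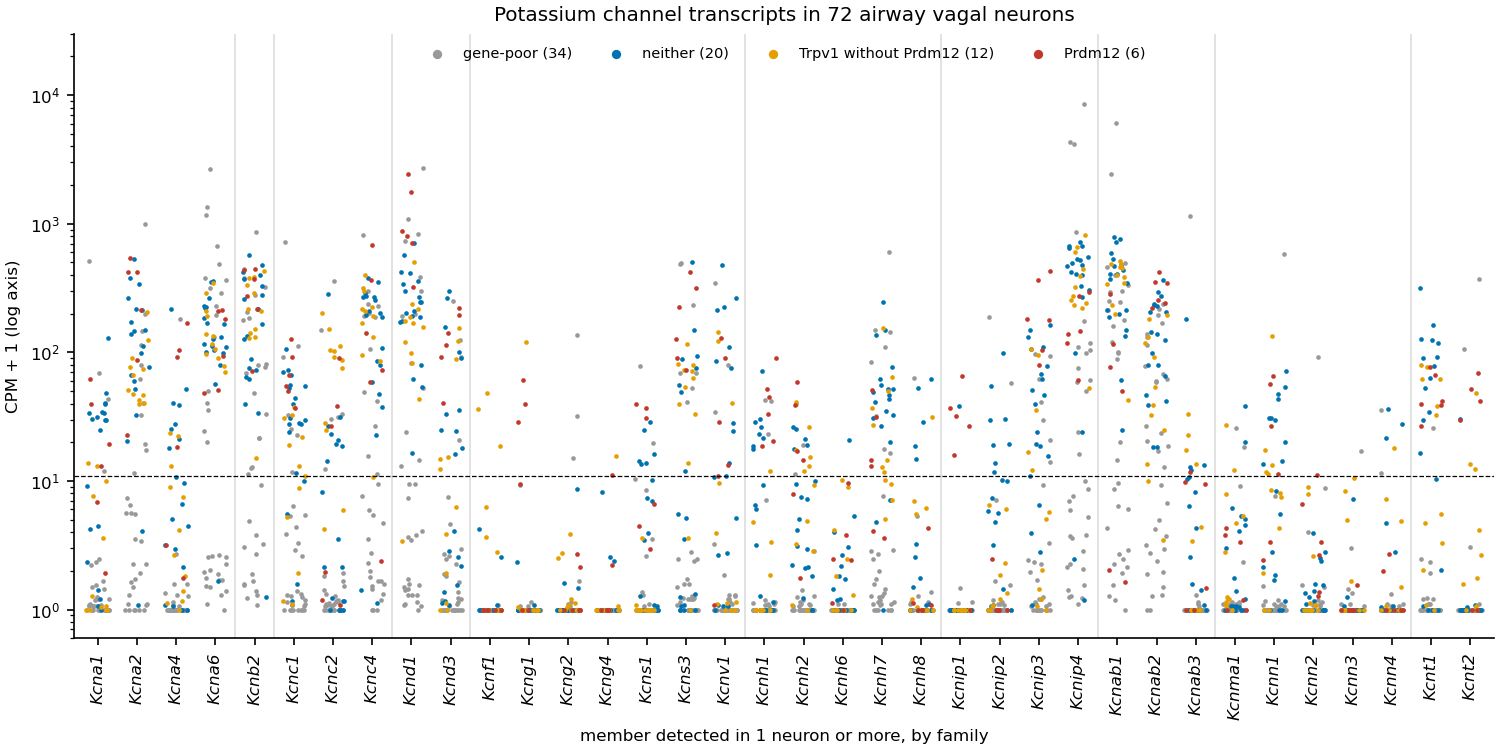
CPM + 1 on a log axis for the 36 members detected in at least 1 of 72 neurons, with 1 point per neuron, colours for classes and grey lines between families. The dashed line is 10 CPM. Kcnb2, Kcna6, Kcnd1, Kcnip4, Kcnab1 and Kcnab2 form dense bands above it, while most silent subunits and calcium-activated channels lie near 0.

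**Figure D2:**
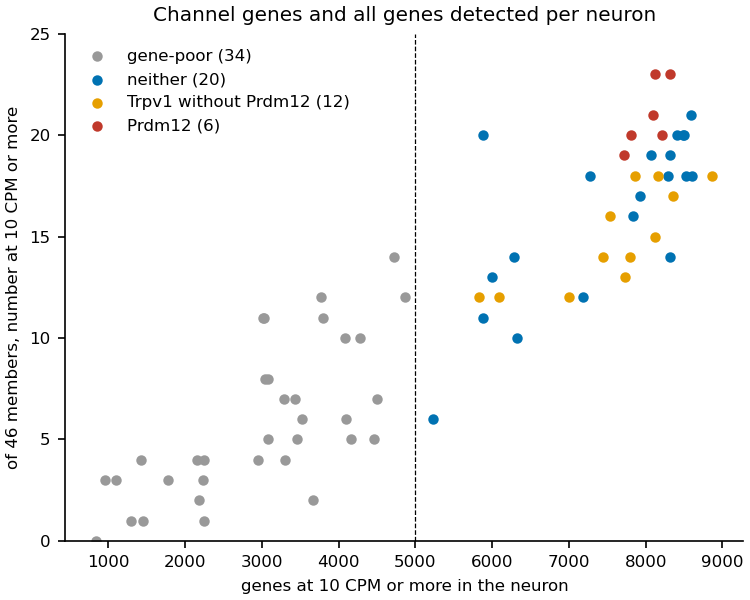
Members at 10 CPM or more (of 46) against all genes at 10 CPM or more, with 1 point per neuron and the gene-rich limit of 5000 dashed. The 6 Prdm12 neurons hold 19 to 23 members, and the gene-poor neurons hold 0 to 14.

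Kv1 genes encode low-threshold delayed rectifiers of axons and terminals. Kcna6, the Kv1.6 subunit, was detected in 54 of 72 neurons (75%, 95% interval 63.4 to 84.5%), with a lowest, median and highest level of 0, 107 and 2648 CPM. Kcna2, the Kv1.2 subunit of juxtaparanodal channels, was detected in 47 neurons (65.3%, 53.1 to 76.1%), at 0, 43.8 and 993 CPM. Both were near universal in gene-rich neurons, in 37 and 36 of 38. Kcna1, the Kv1.1 subunit that limits excitability, was found in 22 neurons and mostly at low level, with a median of 0.523 and a highest value of 508 CPM. Kcna4, the fast-inactivating Kv1.4 subunit, was found in 16 neurons, with a median of 0.327 and a highest value of 214.3 CPM. Kcna3, Kcna5, Kcna7 and Kcna10 were detected in 0 of 72, which allows a share of up to 4.17% (3 counts), and their highest value in any neuron was 1.61 CPM.

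Levels of different genes were compared per kilobase of exon. On that scale Kcna6 had the highest Kv1 level in 40 of the 58 neurons with any detected Kv1 gene (68.97%, 55.5 to 80.5%), Kcna2 in 11, Kcna1 in 5 and Kcna4 in 2. Kcna6 and Kcna2 were detected together in 44 neurons, and each without the other in 10 and 3. Kcna6 shares 39.6% of its exon bases with the antisense gene Gm26673, which reached 10 CPM in 2 neurons and at most 21.6 CPM. The strand setting of the counting is not given, so the Kcna6 level is uncertain.

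Kcnb2, the Kv2.2 delayed rectifier, was the member found in most neurons, 57 of 72 (79.2%, 67.98 to 87.8%). Its lowest, median and highest levels were 0.0812, 126 and 857 CPM, and it had at least 1 count in every neuron. Kcnc4, the Kv3.4 subunit of rapidly inactivating high-threshold channels, led the Kv3 family. It was detected in 48 neurons (66.7%, 54.6 to 77.3%), at 0, 81.97 and 809 CPM, and led per kilobase in 46 of 57 neurons with a Kv3 gene. Kcnc1, the Kv3.1 subunit of fast-spiking cells, was detected in 35 neurons with a median of 9.44 CPM. Kcnc2, the Kv3.2 subunit, was detected in 27 with a median of 0.753 CPM. The lower medians of Kcnc1 and Kcnc2 hide high values in single cells, up to 716 and 359 CPM.

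Kv4 channels carry somatic A-type current, and 2 of the 3 genes were detected. Kcnd1, the Kv4.1 subunit, was detected in 50 neurons (69.4%, 57.5 to 79.8%), at a lowest, median and highest level of 0, 163 and 2699 CPM. Kcnd3, the Kv4.3 subunit, was detected in 27 neurons (37.5%), at 0, 1.57 and 297.3 CPM. Kcnd2, the Kv4.2 subunit, was detected in 0 of 72 and reached at most 1.61 CPM. Kcnd1 led per kilobase in 49 of 51 neurons and Kcnd3 in 2, and of the 27 neurons with Kcnd3, 26 also had Kcnd1.

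Of the calcium-binding proteins that escort Kv4 channels, Kcnip4 was the main one. It was detected in 51 neurons (70.8%, 58.9 to 80.95%), at 0.108, 127 and 8575 CPM, and led its family per kilobase in 46 of 57. Kcnip3, also known as DREAM, was detected in 33 neurons, with a median of 5.10 and a highest level of 431 CPM, and led in 9. Kcnip2 was detected in 10 neurons and Kcnip1 in 6. Kcnip4 overlaps the gene 5730480H06Rik over 4.63% of its exon bases, and that gene reached 10 CPM in 34 neurons.

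The Kv beta subunits, oxidoreductase-fold proteins that dock under Kv1 channels, were the family found in most neurons, with at least 1 member in 64 of 72. Kcnab1, which speeds Kv1 inactivation, was detected in 55 neurons (76.4%, 64.9 to 85.6%), at 0, 206 and 6093 CPM. Kcnab2, which promotes surface and axonal delivery, was detected in 54 (75%), at 0, 59.4 and 421 CPM. The pair were found together in 45 neurons, Kcnab1 alone in 10 and Kcnab2 alone in 9. Kcnab3 was detected in 10 neurons, with 1142 CPM in AM251 and at most 180 CPM elsewhere.

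Silent subunits were found in fewer cells. Kcns3, the Kv9.3 subunit that assembles with Kv2, was detected in 31 neurons (43.1%, 31.4 to 55.3%), at 0, 1.63 and 499 CPM, and led in 26 of 45 neurons with a silent subunit. Kcnv1, the Kv8.1 subunit, was detected in 20 neurons, with a highest level of 475 CPM, and led in 12. Kcns1, Kcng1, Kcng2, Kcnf1 and Kcng4 were detected in 11, 4, 3, 3 and 2 neurons, and Kcng3 and Kcns2 in 0. Kcnb2 was present in 30 of the 31 neurons with Kcns3 and in all 20 with Kcnv1. Kcnb2 was itself in 57 of 72 neurons.

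Among the Kv10 to Kv12 channels, which include the ether-a-go-go and hERG types, Kcnh7 (Kv11.3) was detected in 37 neurons (51.4%, 39.3 to 63.4%), at 0, 11.3 and 601 CPM. Kcnh1 (Kv10.1) and Kcnh2 (Kv11.1, the hERG channel) were each detected in 18 neurons, Kcnh8 in 7 and Kcnh6 in 1. Kcnh3, Kcnh4 and Kcnh5 were detected in 0, with at most 8.61 CPM. Kcnh7 led per kilobase in 17 of 45 neurons (37.8%), Kcnh1 in 10, Kcnh2 in 8 and Kcnh8 in 7. The share of Kcnh7 depends on length: by CPM alone it led in 27 of 45, or 60%, its exons being 15226 bases long. Of these bases 4.57% are shared with Gca, which was detected in 22 neurons.

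Calcium-activated channels were scarce over all 72 neurons, with at least 1 member detected in 29, of which 22 were among the 38 gene-rich neurons. Kcnma1, the large-conductance BK pore, was detected in 6 of 72 neurons (8.33%, 3.12 to 17.3%), and its lowest, median and highest levels were 0, 0.0835 and 37.2 CPM. Of the small-conductance channels that carry afterhyperpolarisation, Kcnn1 was detected in 20 neurons (27.8%), with a highest level of 582 CPM in AM004. Kcnn1 was in 19 of 38 gene-rich neurons and 1 of the other 34, and Kcnma1 in 4 and 2. Kcnn2 and Kcnn3 were detected in 2 and 1, and Kcnn4, the intermediate-conductance channel, in 6. Of the BK beta subunits, Kcnmb4 was detected in 26 neurons and Kcnmb2 in 22, more than the pore, and Kcnmb1 and Kcnmb3 in 2 and 1, fewer than the pore. Kcnu1, the Slo3 pore better known from sperm, was detected in 16. Whether reads covered transcripts evenly is not given, so a low count of a long transcript such as Kcnma1 is a low count in the annotated exons and no measure of channel protein.

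Sodium-activated channels give a slow outward current after bursts. Kcnt1, the Slack subunit, was detected in 26 neurons (36.1%, 25.1 to 48.3%), at 0, 0.221 and 313 CPM, and 25 of the 26 were gene-rich. Kcnt2, the Slick subunit, was detected in 10, with a highest level of 370 CPM in AM304. They were found together in 7 neurons. Kcnt1 led per kilobase in 22 of 29 neurons and Kcnt2 in 7.

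In gene-rich neurons the order of median levels per kilobase began with Kcnip4 at 89.9 CPM per kb, Kcnc4 at 51.5, Kcnab1 at 40.4 and Kcnd1 at 40.1. Kcnab2 (22.9), Kcna6 (21.6), Kcns3 (16), Kcnb2 (14.2), Kcnip3 (10.3) and Kcna2 (7.37 CPM per kb) followed. The quartile ranges of neighbours in this order overlapped in all 9 pairs, so no neighbour stood apart from the next beyond the spread between cells. For Kcnip4 the quartiles were 61.2 and 141 CPM per kb, and for Kcns3 they were 0.277 and 27.2. Kcns3 was detected in 24 of the 38 neurons.

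Single cells held extreme levels. AM286 had the highest Kcnip4 (8575 CPM) and Kcnab1 (6093 CPM), and AM252 had the highest Kcnd1 (2699 CPM), Kcna2 (993 CPM) and Kcnb2 (857 CPM). AM002 had the highest Kcna6, 2648 CPM, and the next neuron, AM080, had 1344 CPM. All 4 were gene-poor, and in gene-rich neurons the same genes reached at most 809 CPM of Kcnip4, 793 of Kcnab1, 2445 of Kcnd1, 544 of Kcna2, 573 of Kcnb2 and 360 of Kcna6. In AM002 the satellite glial sum, 10539 CPM, lay above the pan-neuronal sum, 4777 CPM. The same held in AM005, with the highest Kcna1 (7682 against 6130 CPM), and in AM251, with the highest Kcnab3 (11591 against 6997 CPM). In AM286, AM252 and AM080 the glial sum was the lower.

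Prdm12 is a transcription factor required for nociceptor development, and 6 gene-rich neurons had it at 10 CPM or more. Against the other 32 gene-rich neurons they carried more members, a median of 20.5 (19 to 23) against 16.5 (6 to 21), and a higher sum over the 46 genes, a median of 3901 against 2153 CPM. Genes detected per neuron, with which the number of members moved, ran from 7715 to 8317 in the 6 and from 5231 to 8870 in the 32. Kcnd1, Kcnd3, Kcnip3, Kcns3 and Kcnh1 were higher in the Prdm12 neurons and Kcnab1 was lower. Members were named when shares differed by 40 percentage points or more, or when medians plus 10 CPM differed at least 3-fold, among genes detected in at least 5 of the 38 neurons. Of the 46 members 27 met that condition, and the other 19 were too rarely detected to be compared.

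By share, 6 members were higher in Prdm12 neurons and 0 lower, where 4.44% of the 10821 genes compared were higher and 2.01% lower. By level, 9 were higher and 1 lower, against 1.87% and 1.11% of all genes. The median difference over the 27 members was 19.8 points, and over all genes it was 3.13 points. The median log2 ratio was 0.74 for members and 0.09 for all genes. A gene can meet the condition through the class in which it is high, so these medians describe the genes compared and not all 46. Satellite glial transcripts had a summed median of 384 CPM (92.9 to 2418) in Prdm12 neurons and 995 CPM (38.99 to 9793) in the others, and genes detected had medians of 8107 and 7851.5. Their part in the differences was not tested beyond 3 alternatives. Without neurons above 2598 CPM of glial genes 5 members were higher by share, and Kcns3 lost its call. At equal depth 6 were, with Kcnv1 gained and Kcnt1 lost. Among neurons with 7000 or more genes 4 were, Kcns3, Kcnh1, Kcnip1 and Kcnt2, so Kcnd3 and Kcnt1 were lost. The share over all genes was not worked out at these settings.

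Both Kv4 genes that were detected were higher. Kcnd1 was at 321, 713, 800, 882, 1763 and 2445 CPM in the 6 Prdm12 neurons, a median of 841, against 190 CPM (2.42 to 703) in the others. Of the 6, 5 lay above all 32 other neurons, and 7 of the 32 exceeded the lowest. Kcnd3 was detected in 6 of 6 (39.1, 90.7, 113, 140, 195 and 220 CPM) against 17 of 32, with medians of 126 and 12.6 CPM, and the ranges overlapped, since 8 of the 32 lay above the lowest of the 6. Its share in Prdm12 neurons has a 95% interval of 54.1 to 100%, and that in the others of 34.7 to 70.9%.

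Of the 4 Kv4 interacting proteins, Kcnip3 and Kcnip1 were called higher in Prdm12 neurons, and Kcnip4 and Kcnip2 were not called in either direction. Kcnip3 was detected in 6 of 6 against 20 of 32, with medians of 180 CPM (78.03 to 431) and 18.1 CPM (0 to 161). Kcnip1, a cytosolic Kv4 partner, was at 0, 15.01, 25.6, 31.2, 35.7 and 64.6 CPM in Prdm12 neurons. It reached 10 CPM in 1 of the other 32, AM249 at 37.1 CPM, so 5 of the 6 neurons with Kcnip1 among the 72 carried Prdm12. Kcnip1 met the condition for comparison only through the Prdm12 neurons. Kcnip4 had a median of 140 CPM (59.7 to 294.4) against 399 CPM (0.195 to 809), 2.72-fold lower after adding 10 CPM and so short of the limit. Kcnip4 led the family per kilobase in 4 of 6 Prdm12 neurons and Kcnip3 in 2. Kcnip2 was detected in 0 of 6 against 8 of 32.

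Of the beta subunits, Kcnab1 was called lower and Kcnab2 was not called. Kcnab1 had a median of 62.3 CPM (0.629 to 285) in Prdm12 neurons against 391 CPM (23.99 to 793) in the others, 5.54-fold lower after adding 10 CPM, and was detected in 4 of 6 against 32 of 32. Kcnab2 had medians of 300.2 CPM (218 to 421) and 93.9 CPM (2.46 to 363), a ratio of 2.99 after the same addition, which fell just short of the limit. Per kilobase Kcnab2 exceeded Kcnab1 in 6 of 6 Prdm12 neurons, 1 of 12 Trpv1 neurons without Prdm12 and 4 of 20 neurons with neither.

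Among Kv1 genes, Kcna2 had a median of 317 CPM (21.9 to 544) against 76.2 CPM (0.0824 to 535), and Kcna4 had 54.1 CPM (0.771 to 169) against 4.85 CPM (0 to 214.3). Both level calls rest on single neurons: without AM237, AM011 or AM013 the log2 ratio after adding 10 CPM fell from 1.92 to 1.38 for Kcna2 and from 2.11 to 0.88 for Kcna4, short of 3-fold. Without block 1 of the identifier numbers these ratios were 0.90 and 0.33. The Kcna6 medians, 136 and 129 CPM, lay close together. Kcna2 led the family per kilobase in 4 of 6 Prdm12 neurons and Kcna6 in 2. Kcns3 was at 71.8, 89.97, 126, 222.7, 314 and 417 CPM, a median of 174, against 22.4 CPM (0 to 499), and was detected in 6 of 6 against 18 of 32. Kcnh1 was at 17.7, 19.3, 31.9, 43.9, 51.1 and 89.97 CPM, a median of 37.9, against 0.565 CPM (0 to 70.5). It was detected in 6 of 6 against 9 of 32, the second-widest gap in share among the members after Kcnip1, at 71.9 and 80.2 points.

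Both sodium-activated channels passed the share rule. Kcnt2 was detected in 4 of 6 against 4 of 32, with medians of 34.8 and 0 CPM. Kcnt1 was detected in 6 of 6 against 19 of 32, but its medians were 39.6 CPM (25.8 to 75.7) and 32.4 CPM (0 to 313), so it was more regularly present and not higher. At a detection limit of 50 CPM the Kcnt1 difference turned to -10.4 points. Kcng1 (Kv6.1) was in 3 of 6 against 1 of 32, which is 4 neurons and below the condition for comparison.

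**Figure D3:**
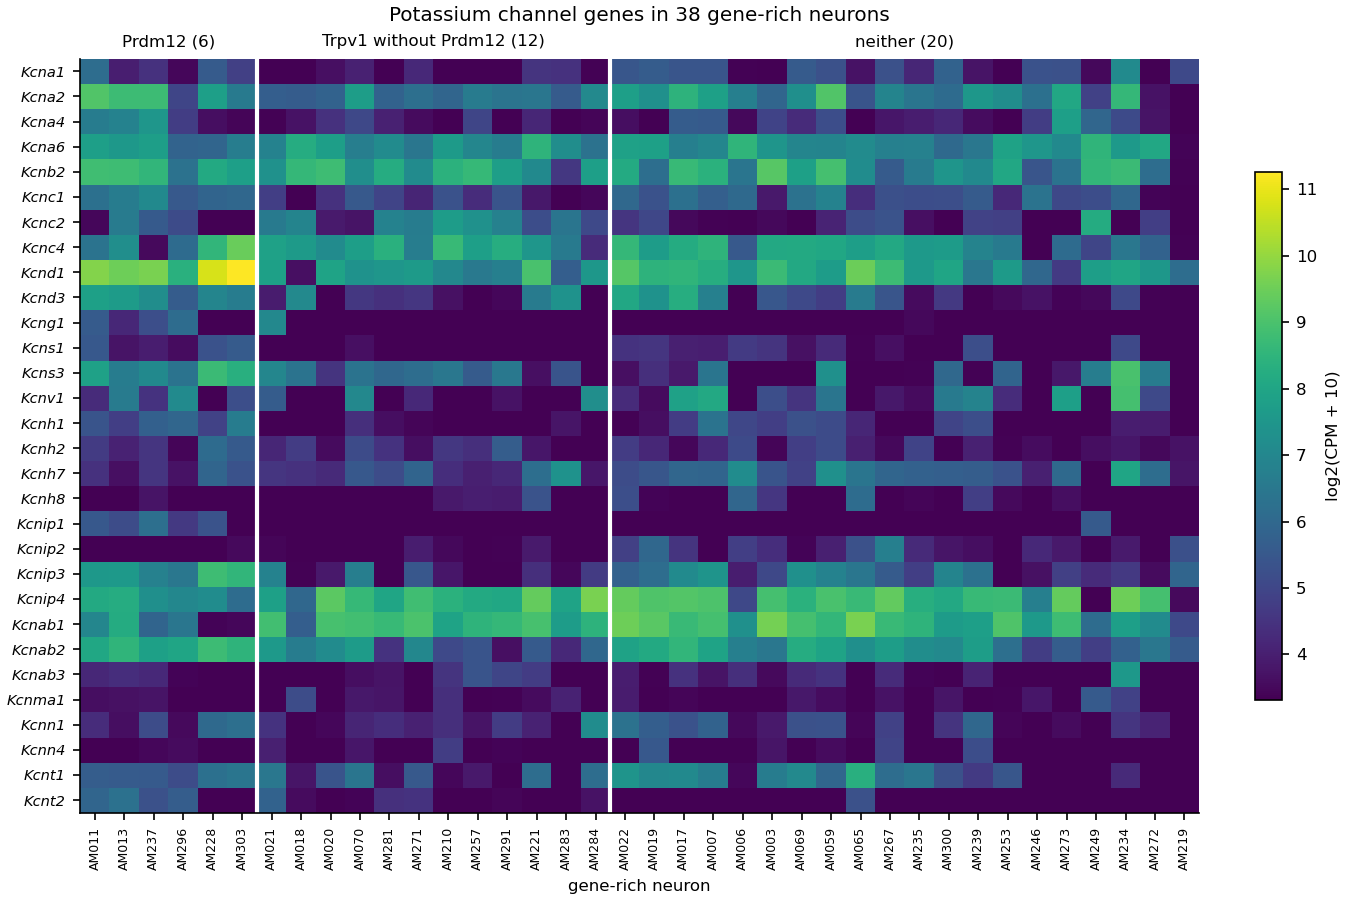
log2(CPM + 10) of the members detected in 4 or more of the 38 gene-rich neurons (rows) in each neuron (columns), with white lines between the 6 Prdm12 neurons, 12 Trpv1 neurons without Prdm12 and 20 with neither. Kcnd1 is brightest in Prdm12 neurons, at 321 to 2445 CPM, and AM228 and AM303 are dark for Kcnab1, at 0.629 and 1.03 CPM.

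The 6 Prdm12 neurons were not alike. AM228 and AM303 had Kcnab1 at 0.629 and 1.03 CPM, where the other 4 had 48.6 to 285 CPM, and both had 0 CPM of Kcnt2, where the other 4 had 28.9 to 68.1 CPM. The same pair had the highest Kcnd1 (1763 and 2445 CPM), Kcns3 (417 and 314), Kcnip3 (431 and 366), Kcnc4 (364 and 687) and Kcnn1 (55.4 and 64.2) of the 6. They had the lowest Kcna4, 2.16 and 0.771 CPM, against 17.3 to 169 CPM. Without AM228 and AM303, an alternative chosen after these values were seen, 7 members were higher by share and 10 by level. AM237 and AM296 also carried Trpv1, at 18.4 and 227 CPM.

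Identifier numbers fall in 3 blocks, which the labels do not call batches. Prdm12 neurons were in blocks 1 (2) and 3 (4) and in block 2 there were 0. Within block 1 Kcnh1 was in 2 of 2 against 4 of 9, and within block 3 in 4 of 4 against 2 of 19. The Kcnd1 medians were 797 against 296.9 CPM in block 1 and 1282 against 173 CPM in block 3. Kcns3 medians were 156 against 10.98 and 220 against 38.4 CPM, and Kcnab1 medians were 200 against 472 and 24.8 against 342 CPM. Kcnt1 turned between blocks, with medians of 39.5 against 89.9 CPM in block 1 and 51.6 against 4.55 in block 3. Without block 3, which leaves 2 Prdm12 neurons, 3 members were higher by share and 5 by level. By share these were Kcns3, Kcnh1 and Kcna4, the last not a call of the main comparison. By level they were Kcna2, Kcna4, Kcnd3, Kcns3 and Kcnc2, again with the last not a main call. Kcnd1, Kcnh1, Kcnip3 and Kcnab1 lost their level calls there, and Kcnd3 and Kcnt1 lost their share calls. Kcnip1 and Kcnt2 were detected there in fewer than 5 neurons, so they were not compared. Within block 1 Kcnip1 was in 2 of 2 against 0 of 9, and Kcnt2 in 2 of 2 against 1 of 9.

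A further Prdm12 neuron, AM304, had 4722 genes and so was outside the gene-rich set. Its Kcnd1 (735 CPM) and Kcnh1 (41.3 CPM) lay within the range of the 6, and its Kcnd3 (248.8 CPM) lay above it. It had 0.571 CPM of Kcns3, 0.476 of Kcnip1 and 0.0952 of Kcnt1, all far below detection, and the highest Kcnt2 and Kcnn2 levels of the 72 neurons, 370 and 90.6 CPM. Its Kcnab1, 251.3 CPM, lay within the range of the 6.

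Trpv1, the heat- and capsaicin-gated cation channel, was at 10 CPM or more in 12 gene-rich neurons without Prdm12, and 20 had neither gene. The Trpv1 neurons carried Kcnc2 and Kcns3 more often and at higher level, and Kcna1, Kcnip2 and Kcnip3 less. Of the 46 members 25 were detected in at least 5 of these 32 neurons. By share 2 were higher and 2 lower, where 1.58% and 1.56% of the 10509 genes compared were. By level 2 were higher and 2 lower, against 0.98% and 1.11%. At a class limit of 20 CPM, AM020, with 15.02 CPM of Trpv1, left the Trpv1 class. Of the share calls only that of Kcnc2 was then kept, and Kcns3, Kcna1 and Kcnip2 lost theirs. Without block 3, over all kept neurons and at 7000 or more genes, Kcns3 kept its share call and Kcnc2 lost it. Kcnip3 was called by level only, and lost that call without block 1, 2 or 3 of the identifier numbers. With trimmed mean scaling of the counts, over all kept neurons and at 4-fold, both Kcnip3 and Kcna1 lost their level calls. The median difference over the 25 members was -8.33 points, and over all genes it was 0. Here too a gene can meet the condition through the class in which it is high, so these medians describe the genes compared. Members per neuron had a median of 14.5 (12 to 18) in Trpv1 neurons and 18 (6 to 21) in those with neither, while genes detected had medians of 7763.5 and 7995.5.

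Kcnc2 was detected in 10 of 12 Trpv1 neurons (83.3%, 51.6 to 97.9%) and 8 of 20 with neither (40%, 19.1 to 63.9%). Its lowest, median and highest levels were 3.26, 88.9 and 201 CPM against 0, 1.85 and 284.3 CPM. Kcns3 had the same shares, 10 of 12 and 8 of 20, with 0, 57.3 and 115 CPM against 0, 3.34 and 499 CPM. For both, the highest value of all was in a neuron with neither gene, so the ranges overlapped although the medians lay 8.35-fold and 5.05-fold apart after adding 10 CPM.

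Kcna1 was detected in 2 of 12 Trpv1 neurons and 12 of 20 with neither, with medians of 0.174 CPM (0 to 12.8) and 28.8 CPM (0 to 129). Kcnip2 was detected in 0 of 12, which allows a share of up to 25% by 3 counts, and in 8 of 20 (40%), at up to 97.3 CPM. It met the condition for comparison only through the neurons with neither gene. Kcnip3 had medians of 4.38 CPM (0 to 106) and 41.8 CPM (0.0774 to 161) and was detected in 5 of 12 against 15 of 20. Endothelial markers had a summed median of 14.9 CPM in Trpv1 neurons and 0.0717 CPM in the others, with Flt1 the only one of 5 whose median in Trpv1 neurons reached 1 CPM, and glial sums had medians of 1018 and 938 CPM. Without neurons above 2598 CPM of glial genes, Kcnc2, Kcna1 and Kcnip2 kept their share calls and Kcns3 lost its share call. Beyond that alternative the part of these transcripts in the differences was not tested.

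Within blocks 1 and 3 the direction held for all 5 of these members. Kcnc2 was in 2 of 3 Trpv1 neurons against 2 of 6 in block 1 and in 8 of 8 against 5 of 11 in block 3. Kcns3 was in 3 of 3 against 2 of 6 and in 6 of 8 against 5 of 11. Kcna1 was in 0 of 3 against 4 of 6 and in 2 of 8 against 6 of 11. Block 2 held 1 Trpv1 neuron, in which Kcnc2 was at 3.26 CPM, below the median of 7.14 CPM in 3 neurons with neither. No member reached a difference of 50 points, and 6 were lower at 30 points, so the count of members rests on the limit chosen.

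**Figure D4:**
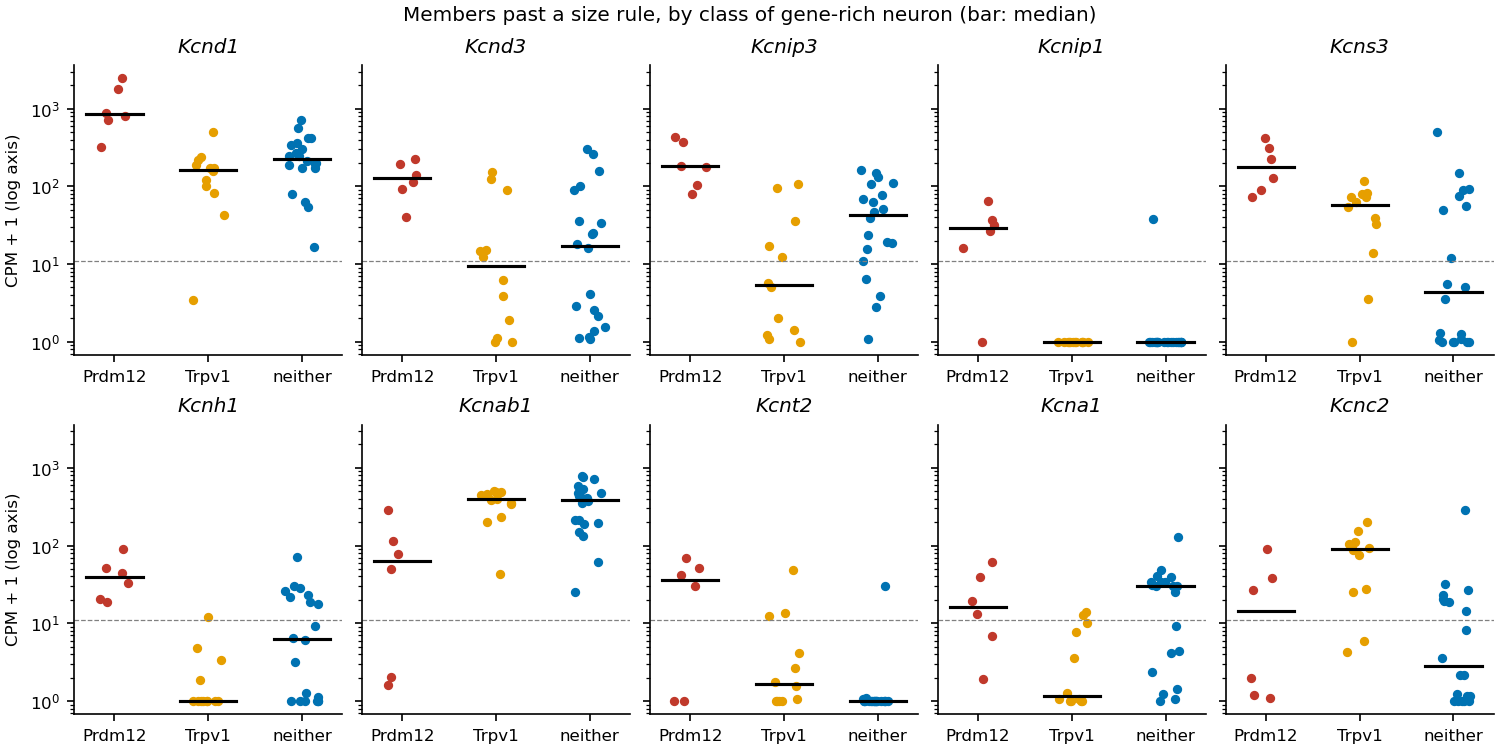
CPM + 1 on a log axis for 10 members named in the class comparisons, with 1 point per gene-rich neuron, a bar at the class median and 10 CPM dashed. Kcnd1 medians are 841 CPM in Prdm12 neurons, 163 in Trpv1 neurons and 225.4 in neurons with neither, and Kcnc2 is highest by median in Trpv1 neurons, at 88.9 CPM.

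The leading member of several families differed by class. Kcnab1 led the beta subunits in 11 of 12 Trpv1 neurons and 15 of 20 with neither, and in 0 of 6 Prdm12 neurons. Kcna6 led Kv1 in 11 of 12, 13 of 20 and 2 of 6. Kcnh1 led the Kv10 to Kv12 channels in 5 of 6 Prdm12 neurons, Kcnh2 in 5 of 10 Trpv1 neurons and Kcnh7 in 8 of 17 with neither. Kcnd1, in contrast, led Kv4 in 6 of 6, 10 of 12 and 20 of 20, and Kcnc4 led Kv3 in 5 of 6, 11 of 12 and 17 of 19.

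**Figure D5:**
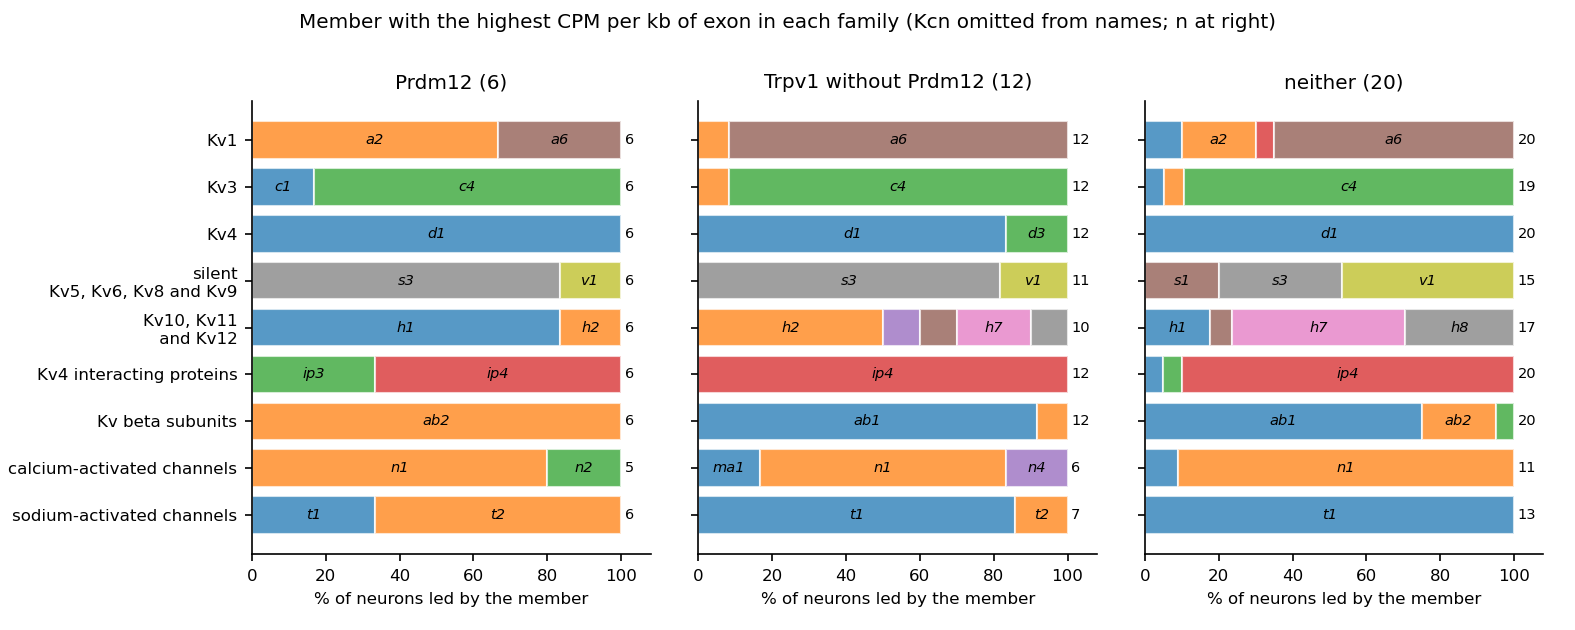
Percent of neurons in which each member has the highest CPM per kb of its family, for 3 classes of gene-rich neuron, with the number of neurons holding the family at the right. Kcnab2 takes the whole bar in Prdm12 neurons, and Kcnab1 takes 11 of 12 in Trpv1 neurons.

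Partner genes that bind or modulate these channels were read from a list of 23, of which 22 matched the table. At least 50% of neurons held 5 of them: Cntnap2 (55 neurons), which anchors Kv1 beside nodes, Adam22 (51), Dlg4 (50), the Kv4 partner Dpp6 (48) and the Kv2 partner Amigo1 (47). Of the 12 partners compared with Prdm12, 2 were higher by share, Lgi1 (6 of 6 against 17 of 32) and Kcnu1 (5 of 6 against 10 of 32). Lower by share were Kcnmb2 (0 of 6 against 18 of 32) and the Kv4 partner Dpp10 (0 of 6 against 13 of 32). Both met the condition for comparison only through the neurons without Prdm12. Of all genes compared, 4.44% were higher and 2.01% lower by share, and 1.87% were higher by level. Lgi1 was also higher by level, with medians of 87.9 against 12.2 CPM. Between Trpv1 neurons and those with neither, only Kcnmb4 of the 12 partners passed a rule, at 3 of 12 against 13 of 20. Of all genes in that comparison 1.56% were lower by share.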

How the data were processed

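The authors deposited whole-number read counts per Ensembl gene for each of the 84 neurons, with no normalization. Reads were assigned with featureCounts, per the submitters' processing notes. Not given in the sources used here are aligner, build, annotation and strand setting. Molecular identifiers are not mentioned, so a transcript amplified many times counts many times. Identifiers were matched to GENCODE M21 (GRCm38), 50376 of 50686, and the unmatched held at most 0.253% of a neuron's counts. CPM used each neuron's total, and lengths are union exons.

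The members, gene lists, classes and limits were chosen with earlier results of these data known. All members could be named, with full values for family leaders, members in 50% or more of neurons and members past a rule. The share rule was 40 points at 10 CPM and the level rule 3-fold in the median plus 10 CPM, both run over all genes for the background. Intervals are exact (Clopper-Pearson) and, with the limit for 0, cover counting error only. Trimmed mean (TMM) scaling from edgeR 4.0.16 was an alternative, and no edgeR test was run. Python 3.11.15, numpy 2.4.6, pandas 2.3.3, scipy 1.17.1 and R 4.3.3 were used, and the rules were tested on simulated data. A result of the partner list that rests on a withheld item is not reported here.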

Additional observations from a re-analysis of the deposited data

Results flagged for a closer look

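Neurons set aside for depth also carried channel transcripts. In 10 of these 12 neurons Kcna6 had more than 3 counts, the limit that a count of 0 allows, and so did Kcnb2 and Kcnab1. Kcna6 reached 10 CPM in 5 of the 12, with a highest value of 6228 CPM, above the 2648 CPM of any neuron kept. These values entered no comparison above.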

How the results depend on the processing

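Shares rest on few cells, 6 in the Prdm12 class, and on limits near which several members lie. Of the main values recomputed, 107 stayed within 1.5 times or the interval of the value reported and 46 did not, mostly counts of 0 to 2 members, and the cause was not tested. Members in at least 50% of neurons numbered 22 at 1 count and 16 in gene-rich neurons only, against 9. In the Prdm12 comparison, members higher by share numbered 10 over all kept neurons, 11 at 30 points, 3 at 50 points and 3 without block 3. Members lower by share numbered 1 at 1 count, at 50 CPM, at 30 points and without block 1, and 2 without block 3. By level, 5 were higher without block 3 and 6 with TMM scaling, where Kcnh1, Kcnip1 and Kcnt2 lost their level calls. The number lower by level was 0 without block 3 and over all kept neurons, and 2 at 2-fold and at a pseudocount of 1 CPM. Leaving out each Prdm12 neuron in turn gave 6 to 8 higher by share, 0 to 1 lower, and 8 to 11 higher by level. The single member lower by share was Kcnab1, when AM237, AM296, AM011 or AM013 was left out.

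At 1 count and at 50 CPM, 2 of the 6 members higher by share in Prdm12 neurons were still called, Kcnh1 and Kcnip1 at 1 count and Kcnd3 and Kcns3 at 50 CPM.

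In the Trpv1 comparison, the 4 share calls, Kcnc2, Kcns3, Kcna1 and Kcnip2, were all lost at 1 count, where Kcng2 and Kcnt2 were called higher and Kcns1 lower. At 50 CPM Kcnc2 alone was still called. In that comparison 1 member, Kcnc2, was higher by share at 50 CPM, without the neurons highest in glial genes, without block 1 and at a class limit of 20 CPM. Without block 3, over all kept neurons and at 7000 genes it was again 1 member, Kcns3, and at 50 points 0. Lower by share were 1 at 1 count, 0 at 50 CPM, without block 1, over all kept neurons, at 50 points and at 20 CPM, 4 without block 3, 5 at 7000 genes and 6 at 30 points. By level 4 were higher over all kept neurons. Lower by level were 0 with TMM scaling, over all kept neurons and at 4-fold, 1 without block 1 and without block 2, 5 at 2-fold and 7 at a pseudocount of 1 CPM. Kcnh7 led its family in 60% of neurons by CPM and 37.8% per kilobase. Among single genes 333 values held, 50 moved and 1 reversed, Kcnt1 at 50 CPM (-10.42 points). No paired analysis was possible because the labels give 1 group and no shared replicate numbers.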
